A study of Mus musculus with 9 samples.

Results

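Major urinary proteins are the main proteins of mouse urine, and the liver makes most of them. The 10 genes described here are Mup1, Mup3, Mup6, Mup7, Mup11, Mup15, Mup17, Mup18, Mup20 and Mup21. They were found by symbol among the 54393 genes of a liver RNA sequencing table, which holds 48 genes with a Mup symbol, 22 of them protein-coding. The genes were selected on their fold changes and calls between antibiotics and control libraries, which were known beforehand, so their levels and fold changes in that contrast are given as a description, with no test. The study asked which liver transcripts differ when the gut bacteria are depleted. The 4 antibiotics libraries, numbered 1, 2, 3 and 5, came from livers of mice given antibiotics that the gut does not absorb. The 5 control libraries, numbered 1 to 5, came from mice given none. Both groups shared the strain, spelled C56Bl/6j in the labels, and the purified diet AIN-76a. No source used here gives the antibiotics, their dose and duration, or the age and sex of the mice.

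Major urinary proteins are small secreted lipocalins, barrel-shaped carriers that hold volatile pheromones and release them slowly from urine marks. In mouse liver their transcription is higher in males and depends on growth hormone pulses, acting through the JAK2 kinase and the transcription factor STAT5B, and on androgen. The genes form a cluster on chromosome 4 with a central group of nearly identical copies, and a peripheral group that differs more.

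All 10 genes lie within chr4:59964294-62150863 (GRCm38, GENCODE release M21), and none of their exons overlaps an exon of another gene on either strand. Mup6 is on the plus strand and the other 9 on the minus strand. The central genes described are Mup7 (chr4:60066469-60070475), Mup1 (chr4:60498012-60501960), Mup11 (chr4:60658466-60662411), Mup15 (chr4:61435790-61439743), Mup17 (chr4:61591929-61595871) and Mup18 (chr4:61670177-61674136). The peripheral ones are Mup6 (chr4:59964294-60007274), Mup20 (chr4:62050234-62054158), Mup3 (chr4:62083476-62087342) and Mup21 (chr4:62147932-62150863). The transcripts compared have 7 exons, except that of Mup21 with 6, and coding sequences of 540 to 555 bases.

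The copies are hard to tell apart by sequence, which matters for counts that were shared out among them. The first 60 coding bases of Mup1, Mup15 and Mup17 (GENCODE M21) show this, with capitals at the positions where the 3 genes differ:
Mup1: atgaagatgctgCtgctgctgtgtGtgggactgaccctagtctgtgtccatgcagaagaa
Mup15: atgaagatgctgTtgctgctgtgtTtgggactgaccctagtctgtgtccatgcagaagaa
Mup17: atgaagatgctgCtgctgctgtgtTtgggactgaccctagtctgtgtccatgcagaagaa
Mup1 and Mup15 differed at 3 bases of the 543-base coding sequence, Mup15 and Mup17 at 8, and Mup1 and Mup17 at 7. Mup11 and Mup18 differed at 1 base of 546, capitalised in coding positions 222 to 281:
Mup11: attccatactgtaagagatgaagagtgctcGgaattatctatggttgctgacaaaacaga
Mup18: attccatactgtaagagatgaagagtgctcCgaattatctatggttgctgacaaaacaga
Mup3 stood further off, with 93 differing or unaligned coding bases against Mup1, and its nearest relative among the 10 was Mup21 with 28.

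For each gene, all 31-base words of its transcripts were looked up in the transcripts of every other annotated gene. None of the 895 words of Mup15 was its own, and 88.6% of them occurred in Mup2. The share of words found in no other gene was 6.89% for Mup18, 9.98% for Mup7, 13.8% for Mup17, 16.7% for Mup11 and 29.8% for Mup1. It was 35.5% for Mup20, 66.2% for Mup21, 69.9% for Mup3 and 75.8% for Mup6. As a share of its transcript words, each peripheral gene thus had more sequence of its own than each central gene, although in number Mup1 had 472 such words, Mup21 428 and Mup20 319. With words of 75 bases Mup15 still had 0 of its own among 851, Mup18 had 12.5%, and Mup6 had 100%.

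**Figure D1:**
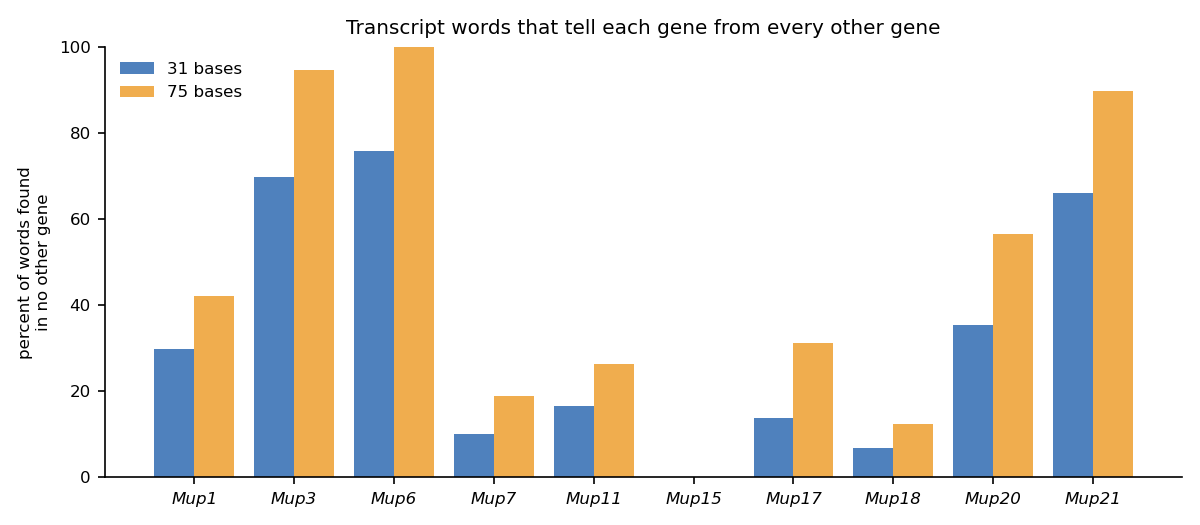
Bars give, for each of the 10 genes (x axis), the percent of its transcript words of 31 or 75 bases found in no other gene's transcripts (y axis). Mup15 has 0 at both lengths, whereas Mup6, Mup3 and Mup21 have 66.2% or more of the 31-base words to themselves.

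Library totals were 15422891 to 59179622 estimated counts with antibiotics and 28156248 to 49628737 in controls. Antibiotics library 5 was the deepest of all 9, and antibiotics libraries 1, 2 and 3 were shallower than every control. Liver markers were abundant in every library: the summed level of 6 hepatocyte genes (Alb, Apoa1, Ttr, Serpina1a, Fgb and Cps1) was 79874 to 89698 CPM with antibiotics and 80209 to 95187 CPM in controls. CPM are read counts scaled to a common library total with TMM factors. In whole liver, fewer cells of a type and less RNA per cell cannot be told apart.

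Major urinary protein transcripts took up several percent of the liver message. The 10 genes together held 33942, 21020, 35017 and 21964 CPM in antibiotics libraries 1, 2, 3 and 5, and 35001, 33582, 43391, 29913 and 42987 CPM in control libraries 1 to 5. Antibiotics libraries 2 and 5 were below every control, and antibiotics libraries 1 and 3 were within the control range. As a share of all counts the sum was 2.80 ± 0.70% with antibiotics (SD, n = 4) and 3.68 ± 0.55% in controls (SD, n = 5). With the 10 rows replaced by their sum in the same model, the log2 fold change was -0.40 ± 0.20 (SE), or 0.757-fold. The sum of all 48 Mup genes, which is less open to how reads were shared out, was 57399 ± 12241 CPM with antibiotics and 72773 ± 10236 CPM in controls (SD, n = 4 and 5), with a log2 fold change of -0.34 ± 0.18 (SE).

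**Figure D2:**
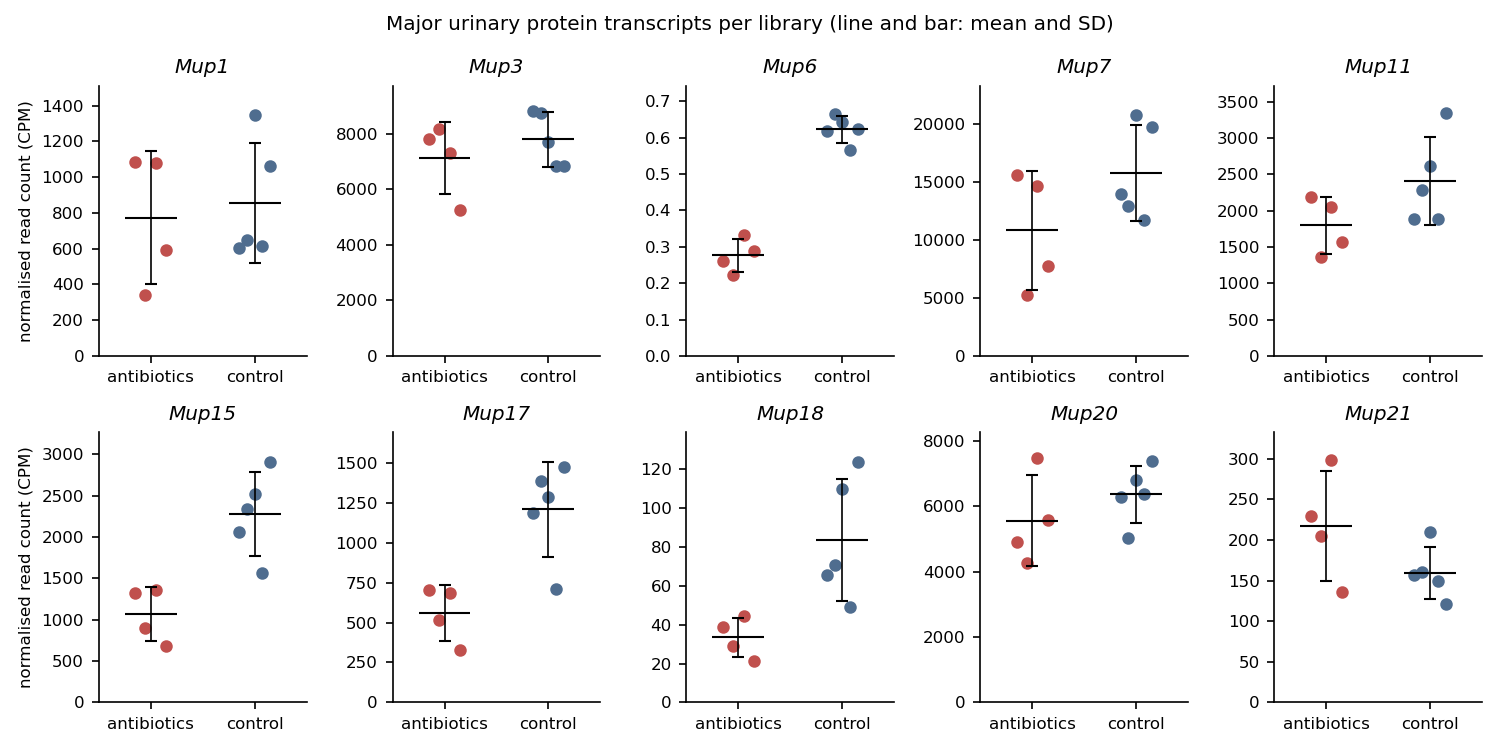
Each panel shows one gene's normalised read count in CPM (y axis, from 0) in 4 antibiotics libraries (left) and 5 control libraries (right), with the mean and SD in black. The groups do not overlap for Mup6, Mup15, Mup17 and Mup18, and overlap for the other 6 genes.

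Among the central genes, Mup15, Mup17 and Mup18 were lower in every antibiotics library than in any control. They encode nearly identical urinary lipocalins with no separate role known to be theirs. Mup15 had 1318, 904, 1364 and 686 CPM with antibiotics, against 2063, 2343, 2519, 1560 and 2912 CPM in controls. The highest antibiotics library was thus below the lowest control, library 4. Its log2 fold change was -1.09 ± 0.23 (SE). Mup17 had 704, 517, 682 and 329 CPM with antibiotics, against 1185, 1386, 1285, 710 and 1470 CPM in controls. Here antibiotics library 1 came close to control library 4, and only that narrow margin kept the groups apart. Its log2 fold change was -1.11 ± 0.25 (SE). Mup18 was far less abundant, with 38.6, 29.0, 44.5 and 21.4 CPM with antibiotics, against 65.5, 70.8, 110, 49.2 and 123 CPM in controls. It had a log2 fold change of -1.33 ± 0.28 (SE), the furthest from 0 of the 10.

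Summed, Mup15, Mup17 and Mup18 held 1037 to 2091 CPM with antibiotics and 2319 to 4505 CPM in controls, a ratio of means of 0.465. Antibiotics library 5 was lowest of the 4 and control library 4 lowest of the 5. Mup17 kept a near constant proportion to Mup15, with 52.2 ± 4.06% in antibiotics libraries and 52.7 ± 5.54% in controls (SD, n = 4 and 5). Mup15 as a percent of Mup11, a central gene of similar sequence, was 43.7 to 66.3% with antibiotics and 82.6 to 109% in controls, with no overlap. How far the sharing of reads between copies contributes to these ratios was not tested.

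The other 3 central genes overlapped between the groups. Mup7, the most abundant of the 10, had 15651, 5235, 14685 and 7789 CPM with antibiotics, against 13941, 12909, 20794, 11719 and 19739 CPM in controls. Antibiotics libraries 2 and 5 were below all controls while 1 and 3 were inside their range, and the log2 fold change was -0.55 ± 0.31 (SE). Mup1, whose protein has been tied to glucose metabolism in mice, had 1083, 339, 1081 and 591 CPM with antibiotics, against 602, 647, 1348, 615 and 1060 CPM in controls. Its log2 fold change was -0.14 ± 0.35 (SE), and it was 0.10 without antibiotics library 2 and 0.08 without control library 3. Mup11 had 2195, 1369, 2056 and 1569 CPM with antibiotics, against 1892, 2281, 2612, 1887 and 3343 CPM in controls, with a log2 fold change of -0.42 ± 0.20 (SE). Antibiotics libraries 2 and 5 were again the lowest, so the same 2 libraries set the low end for Mup1, Mup7 and Mup11.

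Of the 4 peripheral genes, 3 overlapped between the groups. Mup20 encodes darcin, the pheromone of male urine that attracts females, and had 4915, 4247, 7472 and 5583 CPM with antibiotics, against 6263, 5015, 6787, 6378 and 7370 CPM in controls. Its groups overlapped, antibiotics library 3 being the highest of all 9, and its log2 fold change was -0.20 ± 0.17 (SE). Mup3 had 7807, 8174, 7333 and 5260 CPM with antibiotics, against 8832, 8770, 7725, 6844 and 6848 CPM in controls, and only antibiotics library 5 fell outside the control range. Its log2 fold change was -0.13 ± 0.15 (SE). Mup21, the nearest relative of Mup3, was the single gene of the 10 with an estimate above 0: it had 229, 205, 299 and 135 CPM with antibiotics, against 157, 161, 210, 149 and 121 CPM in controls. The groups overlapped, with antibiotics libraries 2 and 5 inside the control range, and the log2 fold change was 0.44 ± 0.20 (SE).

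Mup6 was close to silent, with 4, 4, 6 and 18 counts with antibiotics and 25, 32, 21, 25 and 17 counts in controls. That was 0.223 to 0.331 CPM with antibiotics and 0.567 to 0.665 CPM in controls, with no overlap and a log2 fold change of -1.15 ± 0.25 (SE). The filter on low counts asked for 0.308 CPM or more in enough libraries; all 5 controls, but only 1 of 4 antibiotics libraries reached it, so Mup6 was tested through the controls. Without that filter it no longer passed (edgeR adjusted p = 0.0899), and a filter at 1 CPM removed it. The other 9 genes were above that level in every library.

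Set against the whole table, 398 of 14873 tested genes passed edgeR's quasi-likelihood test at an adjusted p under 0.05, which is 2.68%. In the lower direction alone 156 genes passed, or 1.05%. An unadjusted p under 0.05 was reached by 2747 of the 14873 tested genes. All 10 genes were tested, and 4 passed, all lower with antibiotics: Mup6, Mup15, Mup17 and Mup18. The choice of these genes used this contrast, so nothing is read from that share. The same 4 were those whose groups did not overlap, where 4.29% of all tested genes were lower without overlap. In the higher direction 0 of the 10 had groups that did not overlap, beside 4.59% of all tested genes. Of the 10 estimates 9 were below 0, with a median log2 fold change of -0.48, beside -0.01 over all tested genes. The calls changed when single libraries were left out. None of the 10 passed without any one of antibiotics libraries 1, 2, 3 and 5 or control libraries 1 and 2, and 2 passed without control library 3. In those 9 fits Mup15 had log2 fold changes of -1.24 to -0.93, Mup17 of -1.25 to -0.93, Mup18 of -1.51 to -1.16 and Mup6 of -1.22 to -1.07.

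The makeup of the 10-gene sum differed between libraries as well as the sum. Mup7, Mup3 and Mup20 made up most of it, with means of 37.1%, 26.7% and 20.4% with antibiotics and 42.3%, 21.6% and 17.4% in controls. Antibiotics library 2 had the least Mup7 (24.9%) and the most Mup3 (38.9%) of all 9. Mup15 made up 3.88, 4.30, 3.90 and 3.12% with antibiotics, against 5.89, 6.98, 5.81, 5.21 and 6.77% in controls, with no overlap. Mup18 likewise did not overlap, at 0.0976 to 0.138% with antibiotics and 0.164 to 0.287% in controls, whereas Mup17 did, at 1.5 to 2.46% with antibiotics and 2.37 to 4.13% in controls. Mup21 took a higher share in every antibiotics library, 0.616 to 0.976%, than in any control, 0.281 to 0.499%. The shares of Mup11 were alike, 6.50 ± 0.52% with antibiotics and 6.46 ± 0.89% in controls (SD, n = 4 and 5). The share of 1 gene moves with the levels of the other 9.

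**Figure D3:**
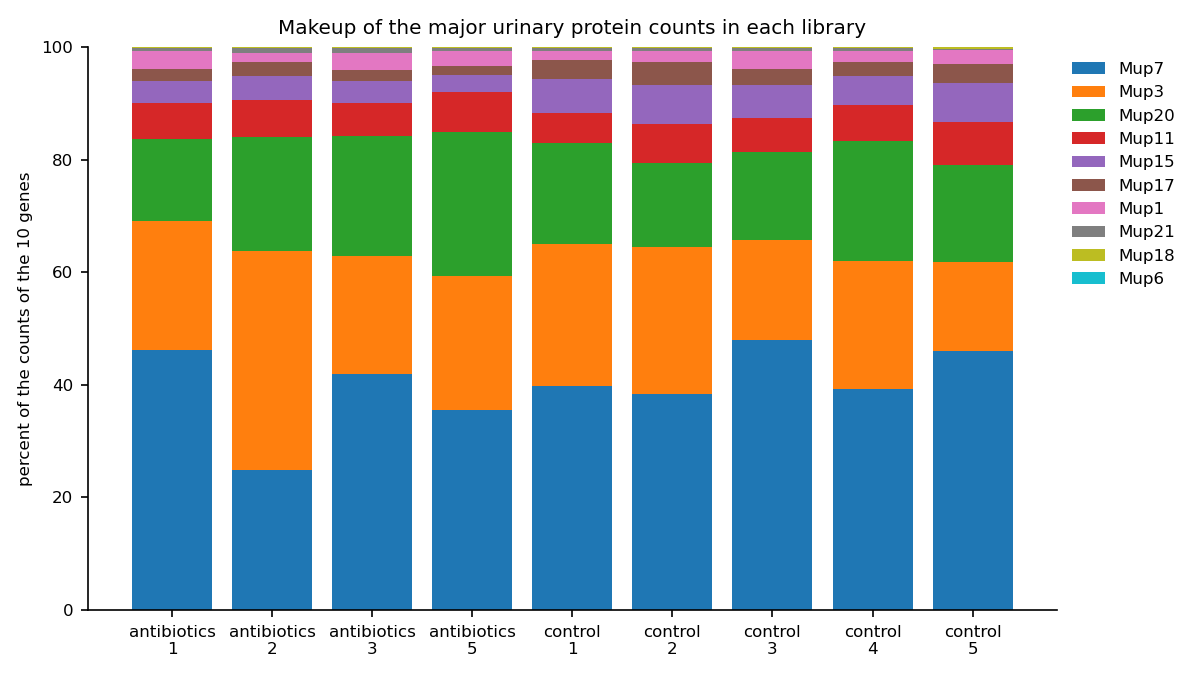
Stacked bars give each gene's percent of the counts of the 10 genes (y axis) in antibiotics libraries 1, 2, 3 and 5 (left) and control libraries 1 to 5 (right). Mup7, Mup3 and Mup20 fill most of every bar, and the purple Mup15 band is 3.12 to 4.30% with antibiotics and 5.21 to 6.98% in controls.

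To compare levels between genes, counts were divided by the mean length of a gene's protein-coding transcripts and scaled to a common total per library (TPM). In antibiotics livers the order was Mup7 (17566 ± 7826 TPM), Mup3 (10604 ± 1692), Mup20 (8423 ± 2000), Mup11 (3295 ± 629), Mup15 (1614 ± 443), Mup1 (1338 ± 607), Mup17 (841 ± 236), Mup21 (449 ± 125), Mup18 (50.2 ± 13.7) and Mup6 (0.554 ± 0.090; SD, n = 4 each). In controls it was Mup7 (25623 ± 6218 TPM), Mup3 (11547 ± 1320), Mup20 (9618 ± 1374), Mup11 (4373 ± 956), Mup15 (3428 ± 632), Mup17 (1808 ± 378), Mup1 (1477 ± 563), Mup21 (331 ± 70.1), Mup18 (125 ± 43.4) and Mup6 (1.24 ± 0.040; SD, n = 5 each). The orders differed in the places of Mup1 and Mup17, whose ranges overlapped in both groups. The order depended on the length used: with the length of all exons joined, Mup17 was above Mup1 in both groups (1246 and 1011 TPM with antibiotics, 2697 and 1121 TPM in controls), and Mup15 was above Mup11 (2391 and 2376 TPM with antibiotics, 5114 and 3170 TPM in controls). With the transcript lengths, Mup3 overlapped Mup20 in both groups, and Mup7 overlapped Mup3 with antibiotics. Also with overlapping ranges were Mup15 and Mup1, and Mup17 and Mup21, with antibiotics, and Mup11 and Mup15 in controls. The other neighbours in each order did not overlap.

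The remaining 38 Mup genes of the table were described beside the 10, and their counts too depend on how reads were shared out. None of the 31-base words of Mup22 or Mup19 was its own. The share found in no other gene was 3.27% for Mup16, 6.69% for Mup8 and 10.8% for Mup14. Of the 38 genes, 21 were tested and 0 passed edgeR's test. An unadjusted p under 0.05 was found for 5 of the 21, beside 2747 of all 14873 tested genes. DESeq2 called Mup8 and Mup14 lower, beside 459 of all 14873 tested genes, and limma-voom called 0 of these Mup genes. Only Mup10 passed edgeR's test as higher without control library 3. Of the 21 estimates 14 were below 0, with a median log2 fold change of -0.14. Of the 11 tested protein-coding ones 10 were below 0, with a median of -0.35. Mup22, whose counts were in the range of those of Mup7, had 16907, 14772, 14992 and 11531 CPM with antibiotics, against 16061, 17265, 17760, 12890 and 16468 CPM in controls, and an estimate of -0.14 ± 0.14 (SE, edgeR adjusted p = 0.639). Mup14 had 3336, 2276, 3414 and 1882 CPM with antibiotics, against 3382, 5294, 4820, 2906 and 5455 CPM in controls, and its edgeR estimate was -0.68 ± 0.23 (SE, adjusted p = 0.148). Mup8 averaged 10.4 ± 3.06 CPM with antibiotics and 17.4 ± 4.94 CPM in controls (SD, n = 4 and 5; log2 fold change -0.75 ± 0.23, edgeR adjusted p = 0.113). Antibiotics library 5 was the lowest of the 9 for both Mup14 and Mup22. Between Mup14 and Mup18 along the chromosome, Mup16 had an estimate of -0.22 ± 0.16 (SE) while its neighbours Mup15 and Mup17 were at -1.09 and -1.11. The difference between these neighbours was not tested.

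**Figure D4:**
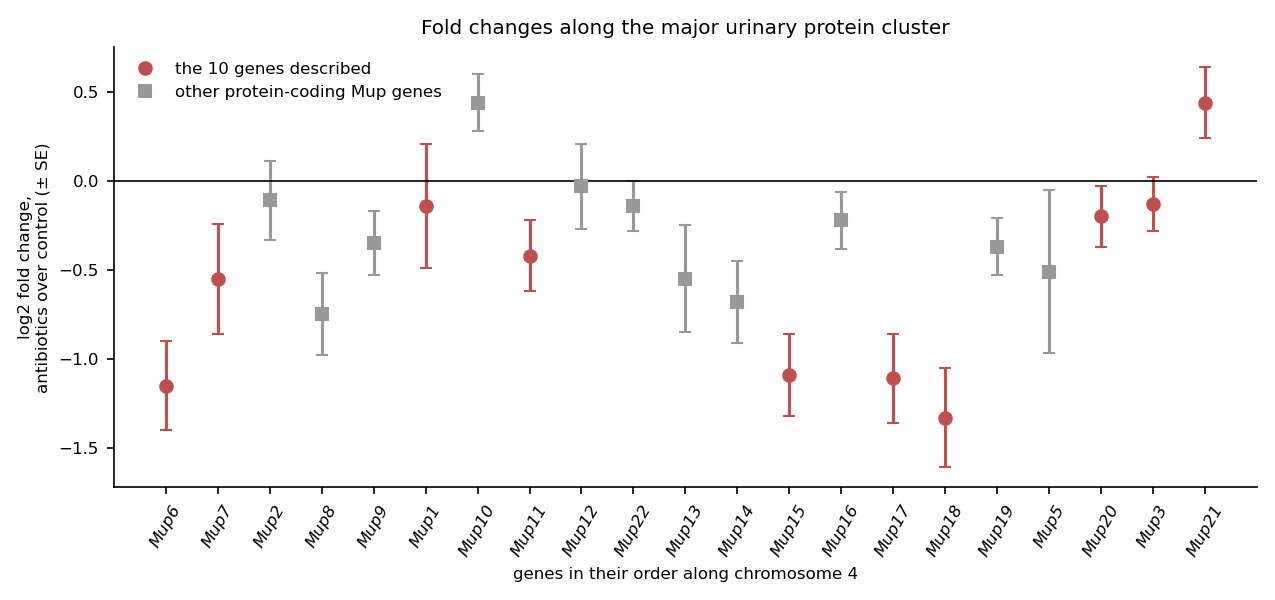
Points give the log2 fold change, antibiotics over control, with its SE (y axis) for the tested protein-coding Mup genes in their order along chromosome 4 (x axis), circles for the 10 genes and squares for the other 11. Mup6, Mup15, Mup17 and Mup18 lie below -1, and Mup10 and Mup21 are the 2 genes above 0, each at 0.44.

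The RefSeq promoter windows (250 bases before to 50 after the annotated start, GRCm38.p6) held 8 of the 10 genes, all but Mup1 and Mup20. In 7 of them a stretch rich in A lies in front of the TATA-box letters TATATAA, and it is longer in the central genes than in the peripheral ones. It is shown from a shared GACCCAT to the TATATAA, which is in capitals:
Mup11, chr4:60662391-60662473, minus strand: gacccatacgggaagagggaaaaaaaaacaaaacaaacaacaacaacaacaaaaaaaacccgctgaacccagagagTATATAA
Mup15, chr4:61439723-61439803, minus strand: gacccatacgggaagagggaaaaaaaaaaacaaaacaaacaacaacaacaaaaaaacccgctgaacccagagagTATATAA
Mup17, chr4:61595851-61595933, minus strand: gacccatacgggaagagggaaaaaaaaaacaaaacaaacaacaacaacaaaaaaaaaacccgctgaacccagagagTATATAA
Mup18, chr4:61674116-61674191, minus strand: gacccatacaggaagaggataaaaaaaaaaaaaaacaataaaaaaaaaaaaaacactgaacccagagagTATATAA
Mup6, chr4:60003409-60003458, plus strand: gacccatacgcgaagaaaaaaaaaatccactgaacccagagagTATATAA
Mup3, chr4:62087322-62087370, minus strand: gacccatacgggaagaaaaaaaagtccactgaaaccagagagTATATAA
Mup21, chr4:62150843-62150888, minus strand: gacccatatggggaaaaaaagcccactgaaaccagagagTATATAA
Between GACCCAT and the last CTGAA before TATATAA lie 55 bases in Mup11 and Mup17, 53 in Mup15 and 48 in Mup18. There are only 22 in Mup6, 21 in Mup3 and 18 in Mup21. Mup15 and Mup17, which were lower without overlap, have stretches like that of Mup11, which overlapped. Mup6, also lower, has a short one like that of Mup3. The stretch of Mup18, lower as well, is less like that of Mup11. Between GACCCAT and CTGAA it has 79.2% A, beside 65.5% in Mup11, 66.0% in Mup15 and 67.3% in Mup17. A link between the stretch and the levels was not tested, and Mup1, Mup7 and Mup20 had no stretch to compare. The letters TATATAA, searched on both strands, were in 7 of the 8 windows (not in that of Mup7) and in 3.24% of all 32851 windows. Relative to the annotated start they began at -29 in Mup6, -28 in Mup18 and -25 in Mup15 and Mup17. In Mup3, Mup21 and Mup11 they began nearer to that start, at -11, -8 and -2. TTCNNNGAA, the form bound by STAT5, was in 0 of the 8 and in 8.30% of all windows. The same motif with 1 more base between its arms, the spacing that STAT6 prefers, was searched after the windows had been looked at and was in those of Mup6, Mup7 and Mup11, and in 6.95% of all. The C/EBP-type TTGCGCAA (0.183% of all windows), the C/EBP-type TTGCAAAA (1.09%) and the HNF4-type CAAAGTCCA (0.475%) were in 0 of the 8. These are matches of letters in a short window and not mapped binding sites.

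Of the genes that carry hormone signals to the liver or regulate Mup genes, 28 of 30 listed were tested. Of these 28, 3 rose with antibiotics and 0 fell by edgeR's test, where 1.63% of all tested genes rose. An unadjusted p under 0.05 was found for 11 of the 28, beside 2747 of all 14873 tested genes. DESeq2 called 1 gene of the list lower, Stat5b, beside 459 of all 14873 tested genes. The list's median log2 fold change was 0.09. Prlr, the prolactin receptor, was one of those that rose and had 33.7 to 59.0 CPM with antibiotics and 24.6 to 35.4 CPM in controls (log2 fold change 0.67 ± 0.16, edgeR adjusted p = 0.0475), and these overlapped. Prlr no longer passed when any 1 of 8 of the 9 libraries was left out, with adjusted p up to 0.137, and still passed without antibiotics library 2 (adjusted p = 0.0186). The list's count dropped to 1 without antibiotics library 1, 3 or 5 or control library 1. Stat5b, the main carrier of the growth hormone pulse, had 37.3 to 41.5 CPM with antibiotics and 44.0 to 56.4 CPM in controls. Its groups did not overlap, and its log2 fold change of -0.34 ± 0.09 missed the threshold by edgeR (adjusted p = 0.0647) and passed by DESeq2 (adjusted p = 0.0125). Without control library 3 its adjusted p was 0.0435, and without control library 5 it was 0.0379. Zhx2, a regulator of several liver genes, had 9.69 to 12.0 CPM with antibiotics and 12.6 to 15.2 CPM in controls, without overlap. Its log2 fold change was -0.30 ± 0.09 (edgeR adjusted p = 0.102). Ghr, the growth hormone receptor, averaged 463 ± 48.3 CPM with antibiotics and 428 ± 49.4 CPM in controls (SD, n = 4 and 5; adjusted p = 0.60).

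Of 20 genes outside the Mup family that are higher in male liver, all tested, 1 fell and 0 rose by edgeR's test, where 1.05% of all tested genes fell. DESeq2 called 3 of the 20 lower and 0 higher, beside 459 lower and 516 higher of all 14873 tested genes. By edgeR 5 of the 20 had an unadjusted p under 0.05, beside 2747 of all 14873. The list had a median log2 fold change of -0.01. The one was Elovl3, a fatty acid elongase, at 145 to 224 CPM with antibiotics and 249 to 404 CPM in controls (log2 fold change -0.72 ± 0.16, edgeR adjusted p = 0.0389). It no longer passed without antibiotics library 1, 3 or 5 or control library 1, 2 or 4, when its adjusted p was 0.0645 to 0.116. Cspg5, a proteoglycan gene, was at -1.19 ± 0.29 (adjusted p = 0.0536), and Gstp1, a glutathione transferase, at -0.57 ± 0.19 (adjusted p = 0.133). Cyp2u1 stood at -0.25 ± 0.09 (adjusted p = 0.150).

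Of 20 genes that are higher in female liver, 9 were tested, and 4 rose with antibiotics, where 1.63% of all tested genes rose. The median log2 fold change of the 9 was 0.60. Fmo2, a flavin monooxygenase, had 14.2 to 23.0 CPM with antibiotics and 7.0 to 13.6 CPM in controls (log2 fold change 1.15 ± 0.20, edgeR adjusted p = 0.0188). Atp6v0d2, a proton pump subunit, had 1.37 to 2.35 CPM with antibiotics and 0.367 to 1.20 CPM in controls (1.41 ± 0.32, adjusted p = 0.0437). Acot3, an acyl-CoA thioesterase, had 2.74 to 38.6 CPM with antibiotics and 1.54 to 2.86 CPM in controls, with overlap (2.83 ± 0.62, adjusted p = 0.0393). Fmo2 no longer passed without antibiotics library 1, 3 or 5 (adjusted p of 0.0646 to 0.0686). With 1 library omitted at a time, Acot3 and Atp6v0d2 each held in 2 of 9 fits. The list's count was 1 without antibiotics library 3 or 5, and 2 without antibiotics library 1 or control library 1, 2 or 4. Of the other liver lipocalins, relatives of the Mups by fold, 0 of 10 tested genes passed edgeR's test and 0 were called by DESeq2. Their median log2 fold change was 0.00. An unadjusted p under 0.05 by edgeR was found for 1 of the 10, beside 2747 of all 14873 tested genes. Rbp4, the retinol carrier, averaged 2404 ± 215 CPM with antibiotics and 2070 ± 120 CPM in controls (SD, n = 4 and 5; edgeR adjusted p = 0.254). Orm3, an orosomucoid, passed only without control library 2 (adjusted p = 0.0450).

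**Figure D5:**
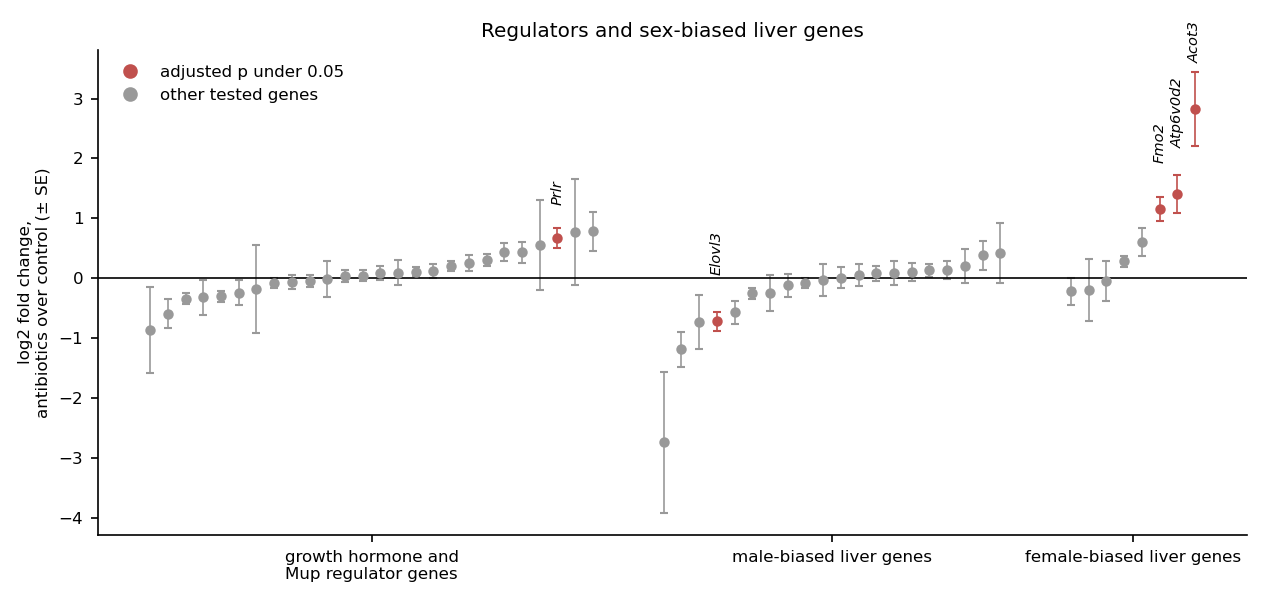
Points give log2 fold changes, antibiotics over control, with SE (y axis) for tested genes of 3 lists (x axis, sorted within a list; genes not reported are left off), red where edgeR's adjusted p was under 0.05. The named red points are Prlr at 0.67, Elovl3 at -0.72, and Fmo2, Atp6v0d2 and Acot3 at 1.15 to 2.83.

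Over the 9 libraries, the genes outside the Mup family whose deviations from their group mean ran most nearly parallel to those of the sum were Gm35570 (r = 0.941), Cela1 (r = 0.938), Pin4 (r = 0.938), Utp4 (r = 0.932) and Usp22 (r = 0.922). These were the top 5 of 12433 genes compared, so high values are given by the selection. All genes of a library also share its depth. Of the 5, Gm35570 and Usp22 were higher with antibiotics without overlap. Gm35570 had 1.34 to 2.87 CPM with antibiotics and 0.317 to 0.797 CPM in controls (edgeR adjusted p = 0.0140), and Usp22 had 28.7 to 32.1 CPM with antibiotics and 25.9 to 28.6 CPM in controls (adjusted p = 0.260).

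In the marker lists for other cells no tested gene passed edgeR's test. Of 6 listed markers each, 0 were tested for kidney, 1 for pancreas, 2 for adipose, 3 for erythroid and 5 for bile duct. Summed markers of Kupffer cells were 132 to 171 CPM with antibiotics and 131 to 387 CPM in controls, and those of endothelial cells 176 to 185 CPM with antibiotics and 167 to 216 CPM in controls. Stellate cell markers summed to 158 to 182 CPM with antibiotics and 135 to 197 CPM in controls. Erythroid markers summed to 199 to 273 CPM with antibiotics and 142 to 217 CPM in controls. Bile duct markers summed to 33.4 to 66.5 CPM with antibiotics and 33.8 to 93.2 CPM in controls, and adipose markers to 3.51 to 5.31 CPM with antibiotics and 0.913 to 5.14 CPM in controls. Of 6 pancreas markers Prss2, Ctrb1 and Pnlip, and of 6 kidney markers Umod, Slc12a1, Kap and Aqp2, were at 0 in all 9 libraries. The pancreas list summed to 10.1 to 20.9 CPM with antibiotics and 9.88 to 15 CPM in controls, with antibiotics libraries 1 and 3 above all controls; nearly all of it was Cela1, whose deviations ran with those of the Mup sum. The kidney list summed to 0 to 0.276 CPM with antibiotics and 0 to 0.113 CPM in controls, with antibiotics libraries 2, 3 and 5 above all controls. The part of either list in the Mup values was not tested. The 8 mitochondrially encoded mRNAs summed to 57333, 65691, 64579 and 44238 CPM with antibiotics, against 47319, 44540, 58033, 48402 and 40646 CPM in controls. Antibiotics libraries 2 and 3 were above all controls in that sum, and their part in the Mup values was not tested.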

How the data were processed

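Per the labels' protocols, liver RNA was taken with Trizol, cleaned on RNeasy columns and made into stranded mRNA libraries. Per the submitters' processing notes, the authors used Salmon and GRCm38; no source used here names its version, settings or annotation release. What they deposited are estimated counts for each gene, all of them whole numbers. Salmon shares reads that fit several copies among them by a model, so counts of single Mup copies carry that uncertainty beyond counting error. All 54393 gene identifiers occurred in GENCODE M21, which gave positions and transcripts. Groups and replicate numbers came from the titles.

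Genes were kept by filterByExpr (minimum count 10, minimum total 15), which left 14873. Counts were scaled by TMM and fitted with edgeR 4.0.16 (R 4.3.3), quasi-likelihood F test, group as the only term, Benjamini-Hochberg adjustment over all tested genes, threshold 0.05. The biological coefficient of variation was 16.7%. The script was checked on simulated counts. Alternatives were RLE and upper-quartile factors, library sizes without the Mup genes or the 10 most abundant genes, DESeq2 1.42.0, limma-voom (limma 3.58.1), other filters, thinning to the smallest total, omission of each library in turn, and a replicate block. Coding sequences were aligned with edlib 1.3.9.post1.

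The 10 genes, the gene lists and the tests were chosen with earlier results of these data known. In each list, every passing gene and otherwise up to 4 genes with the smallest p could be named; Ghr was added after its value was seen. Some genes of the lists are counted in the totals and are not reported here by name. Whether every library is a separate mouse is not in the labels, so p-values reflect the spread of these libraries only. All pairs of libraries within a group differed by more than sampling noise (lowest chi-square per degree of freedom 20.2). No protein sequences were used.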

Additional observations from a re-analysis of the deposited data

Results flagged for a closer look

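Sets of 4 or 5 values were searched for a library far from the others of its group, by the gap to its nearest neighbour over the whole range. Of 66 sets 4 stood out, and chance alone marks about 1 in 20. Mup3 made up 38.9% of the 10-gene sum in antibiotics library 2, far above the other 3 antibiotics libraries at 20.9 to 24.0%. Mup21 made up 0.281% in control library 5, far below the other 4 controls at 0.448 to 0.499%. Genes outside the 10 also stood out: Mup5 had 0.991 CPM in control library 5 and Mup10 had 84.5 CPM in control library 3, each far above the other 4 controls.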

How the results depend on the processing

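The 10-gene sum kept its direction under all 20 alternatives, with log2 fold changes from -0.53 to -0.29 when 1 library was left out and -0.34 with all Mup genes summed. Genes called numbered 398, but 975 by DESeq2 and 36 to 455 with 1 library left out. Without 1 library, calls among the 10 genes numbered 0 to 3, among the other Mup genes 0 to 1, among growth hormone and regulator genes 1 to 4, among male-biased genes 0 to 1, among female-biased genes 1 to 3 and among lipocalins 0 to 1. DESeq2 called 2 other Mup genes, 3 male-biased genes and 4 growth hormone and regulator genes, 1 of them lower; with no filter or one at 1 CPM, 2 male-biased genes passed; thinned to the smallest total, 1 female-biased gene passed. Without 1 library, Mup1 ran from -0.351 to 0.104 (above 0 without antibiotics library 2, and at 0.082 without control library 3) and Mup2 from -0.250 to 0.048 (above 0 without control library 1). Mup12 ran from -0.237 to 0.126, with 0.083 and 0.126 without antibiotics libraries 2 and 5, and 0.058 and 0.071 without control libraries 3 and 5. The cause was not tested; fits with fewer libraries have less power. With exon-union lengths Mup15 passed Mup11 and the order of Mup1 and Mup17 no longer differed between the groups.

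Replicate numbers did not pair the libraries: the deviations of same-numbered libraries correlated at -0.002, -0.057, 0.032 and 0.103. With a replicate block, which drops control library 4, 169 genes passed, with 3 of the 10 genes, 1 growth hormone or regulator gene, 0 male-biased and 2 female-biased genes. The sum's log2 fold change was then -0.50, and Mup2 turned to 0.008.

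Depth limits Mup6, at 4 to 32 counts; antibiotics library 1 had the fewest counts, 15422891.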
